A study of Mus musculus with 17 samples.

Results

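Lung adenocarcinomas of SPC/cRaf transgenic mice were set against healthy lung of non-transgenic mice, to ask which genes separate the end stage of this tumour model from normal lung. The comparison rests on 9 of the 17 mouse exon arrays of the study and on 14939 of 23238 transcript clusters. A transcript cluster is the array's unit for the exons of 1 gene, and those kept are paired with exactly 1 gene symbol in the platform annotation; this choice used no measured value. In SPC/cRaf mice, c-Raf is expressed under the surfactant protein C promoter, which is active chiefly in alveolar type II cells. Cells of each kind were cut from stained cryosections by laser and catapulted into a cap. Each value is a log2 expression level, and a log2 difference of 1 is a 2-fold difference.

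The 4 adenocarcinoma arrays came from transgenic mice of 14, 11.5, 12 and 13 months, labelled male, female, male and male, and the label of replicate 4 names 2 animals. The 5 non-transgenic arrays came from wild-type mice of 7, 7, 11, 7 and 11 months, labelled male, female, female, female and male. No treatment was given to either group in the labels. All adenocarcinoma mice were older than all non-transgenic mice, so age and tumour cannot be told apart. Early lesions (dysplasia, 4 arrays) came from male transgenic mice of 5 to 6 months. So did transgenic lung that looked normal under the microscope (unaltered, 4 arrays). Both entered the same fit, so they added to the estimate of spread behind the standard errors and p-values of the comparison. Otherwise they served only to say at which stage a difference was present. Dysplasia and unaltered tissue were cut from the same mice, which the fit took into account, but the labels name separate animals for the 9 arrays compared here, so the spread within a group is a spread between mice.

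The kinase c-Raf phosphorylates MEK, which activates ERK, a kinase that switches on genes for growth and, as a brake, genes for its own phosphatases and inhibitors. Type II cells of the alveolus make surfactant and can renew the flat type I cells, across which gas is exchanged with a dense capillary bed held up by alveolar fibroblasts. A tumour that grows out of type II cells replaces that mixed tissue by packed epithelium.

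Before the comparison, the arrays were checked against their labels. Within groups, Spearman correlations over the transcript clusters were 0.9931 to 0.9961 among adenocarcinomas and 0.982 to 0.9974 among non-transgenic lungs, and between groups they were 0.9361 to 0.9465. The first principal component of the 9 arrays held 74.2% of the variance and parted adenocarcinomas, at 41.99 to 45.72, from non-transgenic lungs, at -38.69 to -30.84. The second held 11.7% and parted non-transgenic replicates 4 and 5, at -21.62 and -30.86, from replicates 1 to 3, at 16.16 to 16.83. On replicates 4 and 5 the mean of 15 ciliated cell genes was 7.13 and 7.54, against 5.7 to 5.9 on the other 3 and 5.54 to 5.87 in adenocarcinomas. The mean of 13 club cell genes was 10.08 and 10.32 there, against 8.5 to 8.79 on the other 3. The Y-linked genes Eif2s3y and Kdm5d averaged 3.78 and 3.67 on those same 2 arrays and 8.34 to 8.6 elsewhere among the 9, which went against the labelled sex for adenocarcinoma replicate 2 and non-transgenic replicates 2, 3 and 5. For many results that these arrays move, values are therefore also given without replicates 4 and 5, or without replicates 1 to 3, of the non-transgenic group. Not every such move is printed, so a count, median or call given without these values may still depend on those arrays. The wordings "without replicates 4 and 5" and "without replicates 1 to 3" below always refer to that group. The marker genes Krt8 and Myh6 were not analysed here, for lack of a transcript cluster with that symbol alone.

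Of the 14939 transcript clusters, 5851 (39.2%) differed between adenocarcinoma and non-transgenic lung at a Benjamini-Hochberg adjusted p below 0.05 in limma, the rule behind every call in this text. In adenocarcinomas 2638 (17.7%) were higher, with a median log2 difference of 0.52, and 3213 (21.5%) were lower, with a median of -0.61. Large differences were mostly falls: 482 transcript clusters (3.23%) were at least 2-fold higher and 930 (6.23%) at least 2-fold lower, and at 8-fold the counts were 23 and 53. The median over all 14939 was 0.03, and the median standard error of a difference was 0.1. In 5515 (36.9%) no adenocarcinoma array overlapped a non-transgenic array. Gene lists are read below against these shares. In the genes given array by array below, the groups did not overlap unless values say so, as they do for Sftpc, Scgb1a1 and Ager. Genes named as the largest rises and falls were chosen among those without overlap, so for them it is no separate result.

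**Figure D1:**
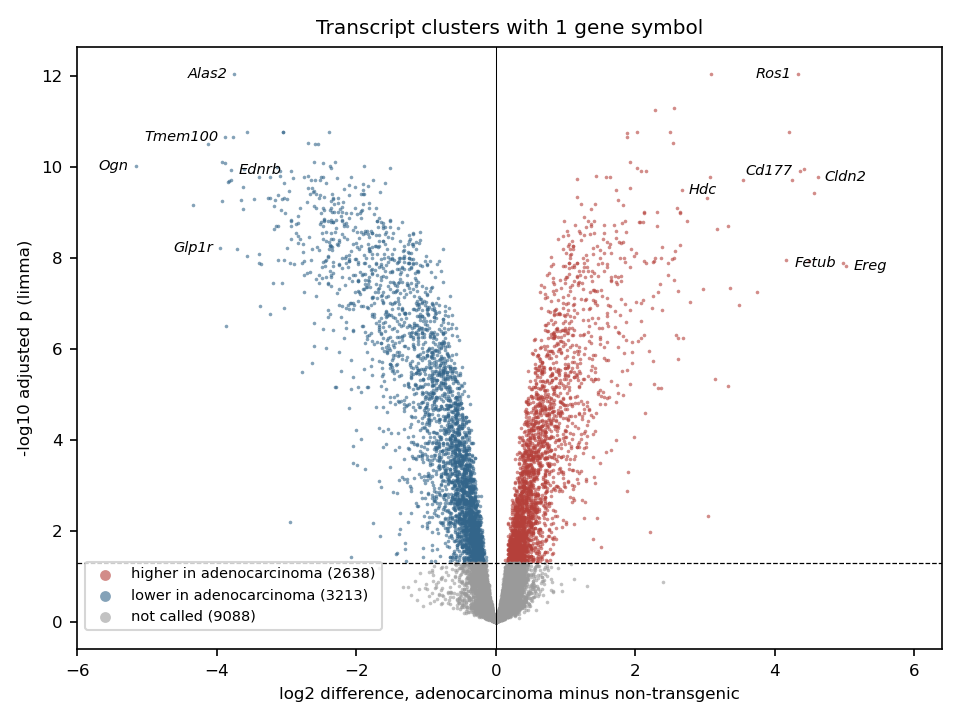
Log2 difference, adenocarcinoma minus non-transgenic, against -log10 of the limma adjusted p for 14939 transcript clusters, each a point; the dashed line marks an adjusted p of 0.05. Falls (3213 called) reach further down the scale for more transcript clusters than rises (2638 called) reach up it, with Ereg at 5.03 and Ogn at -5.16 at its ends.

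Most alveolar type II cell genes were higher in the tumours. Of 24 measured type II cell genes, 20 rose, 1 fell and 3 did not pass, with a median log2 difference of 0.73. The surfactant protein gene Sftpb had log2 values of 13.74, 13.79, 13.75 and 13.82 in adenocarcinomas and 12.69, 12.9, 12.79, 12.62 and 12.76 in non-transgenic lung. Its 4 tumour values lay above all 5 others, a difference of 1.02 ± 0.06 (SE; adjusted p = 2.52e-09). Ctsh, which encodes cathepsin H, a protease that trims surfactant protein precursors, had the largest rise of the list, with 12.27, 12.22, 12.27 and 12.35 in adenocarcinomas against 10.01, 9.99, 10.1, 10.29 and 10.42 in non-transgenic lung, or 2.12 ± 0.11. The mucin gene Muc1 rose by 1.64 ± 0.1, the collectin gene Sftpd by 1.39 ± 0.09, the alarmin gene Il33 by 1.26 ± 0.17, the lamellar body lipid pump gene Abca3 by 1.0 ± 0.08 and Lamp3, a lysosomal membrane gene, by 0.77 ± 0.06. Sftpc, the surfactant protein C gene, did not pass: its values were 14.21, 14.26, 14.24 and 14.22 in adenocarcinomas and 14.16, 14.14, 14.15, 14.19 and 14.24 in non-transgenic lung, close to the highest value of the data, 14.3. The difference was 0.06 ± 0.05 (adjusted p = 0.403), and cyclic loess scaling turned it to -0.17 (adjusted p = 0.0135). The amino acid transporter gene Slc6a14 was the list's 1 fall, at -0.82 ± 0.17.

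Most type I cell genes fell. Of 18 measured, 14 fell, 2 rose and 2 did not pass, with a median of -1.57, and 12 of the falls were at least 2-fold. Hopx, a homeodomain protein gene, had 8.72, 8.69, 8.49 and 8.64 in adenocarcinomas and 10.31, 10.41, 10.43, 10.49 and 10.64 in non-transgenic lung, so that no array of the groups overlapped, with a difference of -1.82 ± 0.09 (adjusted p = 6.1e-10). Igfbp2, an insulin-like growth factor binding protein gene, stood at 7.38, 7.29, 7.14 and 6.78 in adenocarcinomas against 10.29, 10.49, 10.37, 10.42 and 10.39 in non-transgenic lung, or -3.24 ± 0.16. The caveolin gene Cav1, which endothelium also expresses, fell by 2.6 ± 0.1 and the proteoglycan gene Spock2 by 2.66 ± 0.13. Ager, the receptor gene commonly used to mark type I cells, did not pass, with 12.56, 12.65, 12.61 and 12.63 in adenocarcinomas and 12.65, 12.78, 12.69, 12.68 and 12.79 in non-transgenic lung, where the highest tumour and the lowest lung value were both 12.65. Its difference of -0.1 ± 0.05 was called lower, at -0.23 and -0.24, only after quantile and cyclic loess scaling. The water channel gene Aqp5 was one of the 2 rises, with 10.55, 10.63, 10.64 and 10.66 in adenocarcinomas against 9.63, 9.67, 9.59, 9.65 and 9.95 in non-transgenic lung, or 0.92 ± 0.09. Pdpn, for podoplanin, was called lower at -0.36 ± 0.1, with -0.24 without replicates 4 and 5 and -0.55 without replicates 1 to 3. Its call was lost with sex by Y-linked genes as a covariate (limma adjusted p = 0.0649). In bulk RNA such as this, fewer cells of a type and less RNA per cell cannot be told apart.

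Most genes of epithelial regulators and junctions rose as well. Of 19 transcription factor genes of lung epithelial lineages, 15 rose, 2 fell and 2 did not pass (median 0.8), led by the ETS factor genes Elf5 at 2.09 ± 0.19 and Ehf at 1.87 ± 0.11 and the forkhead gene Foxp2 at 1.89 ± 0.06. Of 28 junction and adhesion genes, 20 rose, 3 fell and 5 did not pass (median 0.83). The tight junction gene Cldn4 had 9.51, 9.28, 9.56 and 9.48 in adenocarcinomas and 6.1, 6.2, 5.93, 7.24 and 7.0 in non-transgenic lung, where replicates 4 and 5 were the highest, and rose by 2.97 ± 0.23 (adjusted p = 4.68e-08). Cldn3, another claudin gene, rose by 2.01 ± 0.16, the protease inhibitor gene Spint1 by 1.84 ± 0.12, the epithelial splicing regulator gene Esrp1 by 1.77 ± 0.11, the adhesion gene Epcam by 1.76 ± 0.16 and the E-cadherin gene Cdh1 by 0.67 ± 0.07. The scaffold gene Tjp1, for ZO-1, fell by 0.79 ± 0.08. Of 20 genes that mark a transitional state between type II and type I cells, 14 rose and 3 fell (median 0.67), among them the keratin gene Krt18 at 2.11 ± 0.12, the chaperone gene Clu at 2.32 ± 0.13 and Sprr1a, a cornified envelope gene, at 2.38 ± 0.2. Tm4sf1, also expressed by endothelium, fell by 2.25 ± 0.14.

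Genes of a mesenchymal transition did not follow. Of 13, 7 fell, 2 rose and 4 did not pass, with a median of -0.63. The repressor gene Zeb1 had 7.8, 7.55, 7.7 and 7.53 in adenocarcinomas, below every one of the 9.81, 10.05, 9.95, 9.68 and 9.5 of non-transgenic lung, and fell by 2.16 ± 0.16. Further repressor genes of this class also fell, Snai2 by 1.84 ± 0.15 and Zeb2 by 1.37 ± 0.11. The cadherin gene Cdh11 fell by 1.32 ± 0.1, while Tgfbi, an extracellular adhesion gene, rose by 0.86 ± 0.09. These genes are also expressed by fibroblasts and endothelium, whose lists fell as well, with medians of -1.83 and -2.2; their part in these falls was not tested.

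Markers of the conducting airway differed as much among the non-transgenic arrays as between the groups. None of 13 club cell genes rose and 4 fell (median -1.13); without those 2 arrays 3 rose, 2 fell and the median was -0.1, and without replicates 1 to 3 none rose and 8 fell. Scgb1a1, the club cell secretoglobin gene, had 13.05, 9.69, 12.65 and 12.59 in adenocarcinomas and 12.61, 12.95, 12.76, 13.7 and 13.77 in non-transgenic lung, with replicate 2 the lowest tumour, and did not pass at -1.16 ± 0.55 (adjusted p = 0.129). Scgb3a2 had 6.03, 4.85, 5.72 and 5.82 in adenocarcinomas against 6.64, 6.52, 6.79, 8.94 and 9.5 in non-transgenic lung and was called at -2.07 ± 0.71 (adjusted p = 0.0372), but not without replicates 4 and 5, at -1.04 (adjusted p = 0.222), nor without non-transgenic replicate 4 or 5 or adenocarcinoma replicate 2, 3 or 4 alone. Of 15 ciliated cell genes 2 fell and none rose (median -0.64), with Foxj1, the master regulator of motile cilia, at -0.66 ± 0.34 and not called, though it was at -0.93 (adjusted p = 0.0298) without non-transgenic replicate 1 and at -1.5 without replicates 1 to 3; for the list, without replicates 4 and 5 the median was 0.05 with 2 falls, and without replicates 1 to 3 all 15 fell. Among 11 basal and squamous genes, 4 rose and none fell (median 0.19), against 5 and 0 (median 0.34) without replicates 4 and 5 and 2 and 1 (median 0.08) without replicates 1 to 3: Ivl, for involucrin, at 2.55 ± 0.17 and Sprr1a were large, and the basal keratin genes Krt15 and Krt5, at 0.26 ± 0.09 and 0.25 ± 0.08, were small and lost under 12 and 11 of the 25 alternatives. The basal cell factor gene Trp63 did not pass, at 0.17 ± 0.08.

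**Figure D2:**
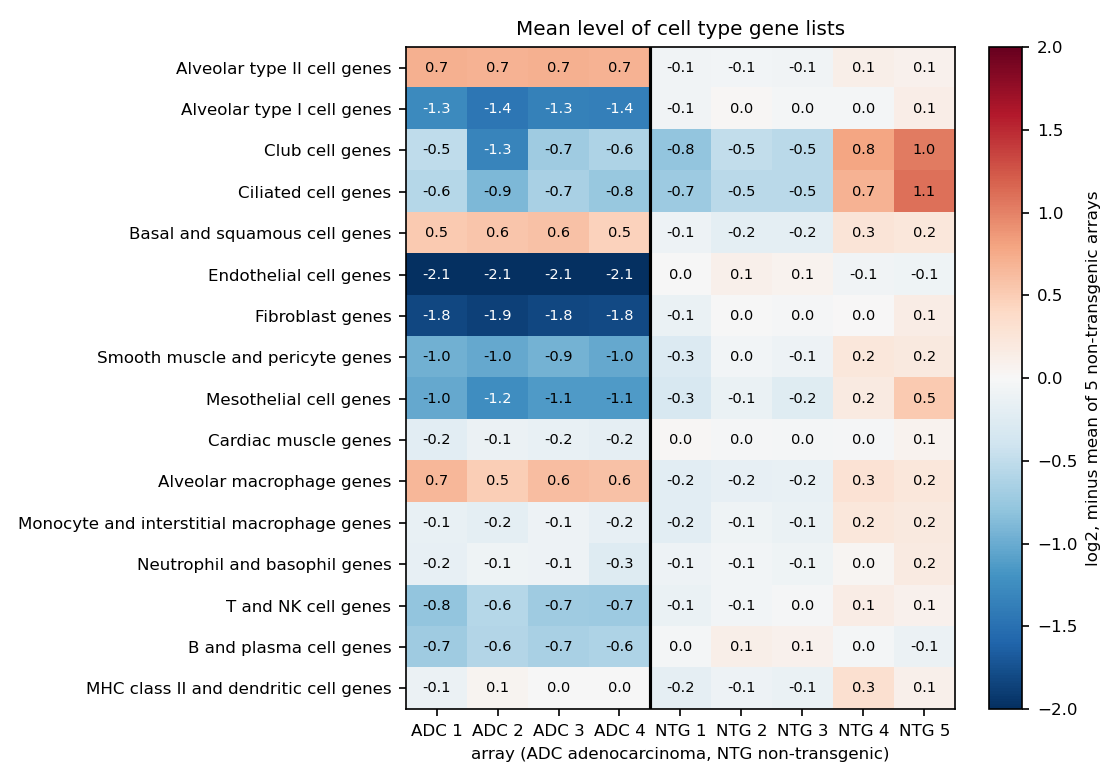
Mean log2 level of 16 cell type gene lists on each array, less the list's mean over the 5 non-transgenic arrays (colour and printed value), with the 4 adenocarcinomas on the left. Type II cell and alveolar macrophage lists were higher and endothelial, fibroblast and type I cell lists lower on all 4 adenocarcinoma arrays, while the club and ciliated lists were highest on non-transgenic replicates 4 and 5.

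Target genes of the Raf pathway mostly rose. Of 29 ERK output and feedback genes, 18 rose, 3 fell and 8 did not pass (median 0.61). Etv4, an ETS factor gene induced by ERK, had 7.83, 7.86, 7.62 and 8.13 in adenocarcinomas and 5.8, 5.78, 5.84, 6.0 and 6.06 in non-transgenic lung and rose by 1.96 ± 0.19 (adjusted p = 6.88e-07). Dusp6, which encodes the phosphatase that inactivates ERK, had 11.73, 11.59, 11.71 and 11.76 in adenocarcinomas against 10.35, 10.65, 10.67, 10.42 and 10.79 in non-transgenic lung, or 1.12 ± 0.12. In both genes the groups did not overlap. The immediate early gene Egr1 rose by 1.6 ± 0.16, Myc by 1.37 ± 0.19, the cyclin gene Ccnd1 by 1.17 ± 0.13, the feedback inhibitor gene Spry2 by 0.97 ± 0.12 and Etv5 by 0.72 ± 0.1. Spry4, a relative of Spry2, did not pass, at -0.13 ± 0.09 (adjusted p = 0.34). Jun, a component of AP-1, was the list's largest fall, with 9.25, 8.83, 9.0 and 9.05 in adenocarcinomas and 10.51, 10.54, 10.54, 10.5 and 10.65 in non-transgenic lung, or -1.52 ± 0.1. Of the 8 measured kinase and adaptor genes of the pathway itself, 3 rose and 1 fell (median 0.04), and none differed 2-fold: the adaptor gene Shc1 rose by 0.99 ± 0.15, the MEK genes Map2k1 and Map2k2 by 0.58 ± 0.08 and 0.33 ± 0.07, and the scaffold gene Ksr1 fell by 0.37 ± 0.07.

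The largest rise of the whole comparison was that of an EGF receptor ligand gene, and the receptor gene itself fell. Ereg, which encodes epiregulin, had 10.35, 9.99, 10.17 and 10.38 in adenocarcinomas and 5.08, 5.07, 4.91, 5.57 and 5.34 in non-transgenic lung. The difference of 5.03 ± 0.35 (adjusted p = 1.5e-08) is 32.6-fold. Egfr, which encodes the receptor for epiregulin, had 6.43, 6.38, 6.33 and 6.3 in adenocarcinomas against 8.12, 8.24, 8.22, 8.17 and 8.19 in non-transgenic lung, a fall of 1.83 ± 0.08 (adjusted p = 2.56e-10). Erbb3, for a partner receptor without kinase activity of its own, had 10.5, 10.45, 10.47 and 10.5 in adenocarcinomas and 8.65, 8.78, 8.76, 9.27 and 9.2 in non-transgenic lung and rose by 1.55 ± 0.11. None of these 3 genes had overlapping groups. Lrig3, of a family of ERBB inhibitors, fell by 1.53 ± 0.15. In all, 8 of the 14 measured ligands, receptors and inhibitors rose and 3 fell (median 0.72); without non-transgenic replicates 1 to 3 it was 6 and 3.

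Several of the other large rises were genes of organs other than lung. Cldn2, a pore-forming claudin gene of leaky epithelia, had 8.65, 8.43, 8.52 and 8.5 in adenocarcinomas and 3.74, 4.13, 3.5, 3.97 and 4.2 in non-transgenic lung (adjusted p = 1.66e-10), a rise of 4.62 ± 0.2. Gkn2, a gastrokine gene of stomach epithelium, had 8.61, 7.54, 8.18 and 8.13 in adenocarcinomas against 4.87, 4.31, 4.08, 4.38 and 4.16 in non-transgenic lung, or 3.75 ± 0.29. In both genes every adenocarcinoma array lay far above every non-transgenic array. Of 27 genes of gastrointestinal lineages, 11 rose and none fell, but the median was 0.2, so the list held few large rises besides these: the mucin gene Muc4 rose by 2.47 ± 0.17 and the fibrinogen gene Fga by 1.39 ± 0.21. A rise of at least 8-fold was also seen in 3 genes of neurons and endocrine cells. Cbln1, for a synaptic organiser, had 9.19, 9.02, 9.06 and 9.14 in adenocarcinomas and 4.64, 4.51, 3.99, 5.07 and 4.86 in non-transgenic lung, or 4.49 ± 0.3. Ptprn and Ptprn2, for membrane proteins of dense core vesicles, rose by 4.25 ± 0.19 and 3.09 ± 0.08. In the neuroendocrine list as a whole, 4 of 17 genes rose and 4 fell (median 0.21, or 0.06 without replicates 1 to 3). These shares, 23.5% each, were near the 17.7% called higher and 21.5% called lower over all transcript clusters. The granin genes Chga and Chgb did not pass at 0.24 ± 0.11 and 0.17 ± 0.1, and Cpe, for a prohormone-processing enzyme, fell by 0.97 ± 0.2.

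Other genes among the largest rises had varied roles. Ros1, an orphan receptor tyrosine kinase gene, had 10.44, 10.46, 10.45 and 10.37 in adenocarcinomas and 5.94, 5.96, 6.0, 6.24 and 6.28 in non-transgenic lung, with a spread far below the difference of 4.34 ± 0.11 (adjusted p = 9e-13). Cd177, known as a neutrophil surface gene, had 11.25, 11.22, 11.28 and 11.4 in adenocarcinomas against 6.72, 6.76, 6.58, 7.16 and 7.43 in non-transgenic lung, or 4.36 ± 0.18. The neutrophil genes S100a8, S100a9 and Csf3r fell by 1.18 ± 0.2, 1.93 ± 0.3 and 1.47 ± 0.15. The neutrophil and basophil list as a whole had 2 rises and 6 falls among 19 genes, with a median of -0.03 (-0.15 without replicates 1 to 3), and its part in the rise of Cd177 was not tested. The sialyltransferase gene St8sia6 rose by 4.57 ± 0.22, the P-type ATPase gene Atp13a4 by 4.2 ± 0.14, the adhesion gene Chl1 by 3.55 ± 0.16, the co-stimulatory ligand gene Tnfsf9 by 3.49 ± 0.29, the fucosyltransferase gene Fut2 by 3.18 ± 0.18, the anion exchanger gene Slc26a4 by 3.03 ± 0.15 and the connexin gene Gjb1 by 2.74 ± 0.15. Ankrd22 and Rnf128, a ubiquitin ligase gene, rose by 4.42 ± 0.18 and 3.14 ± 0.36; for Rnf128 the difference was 3.84 without non-transgenic replicates 4 and 5 and 2.1 without replicates 1 to 3.

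**Figure D3:**
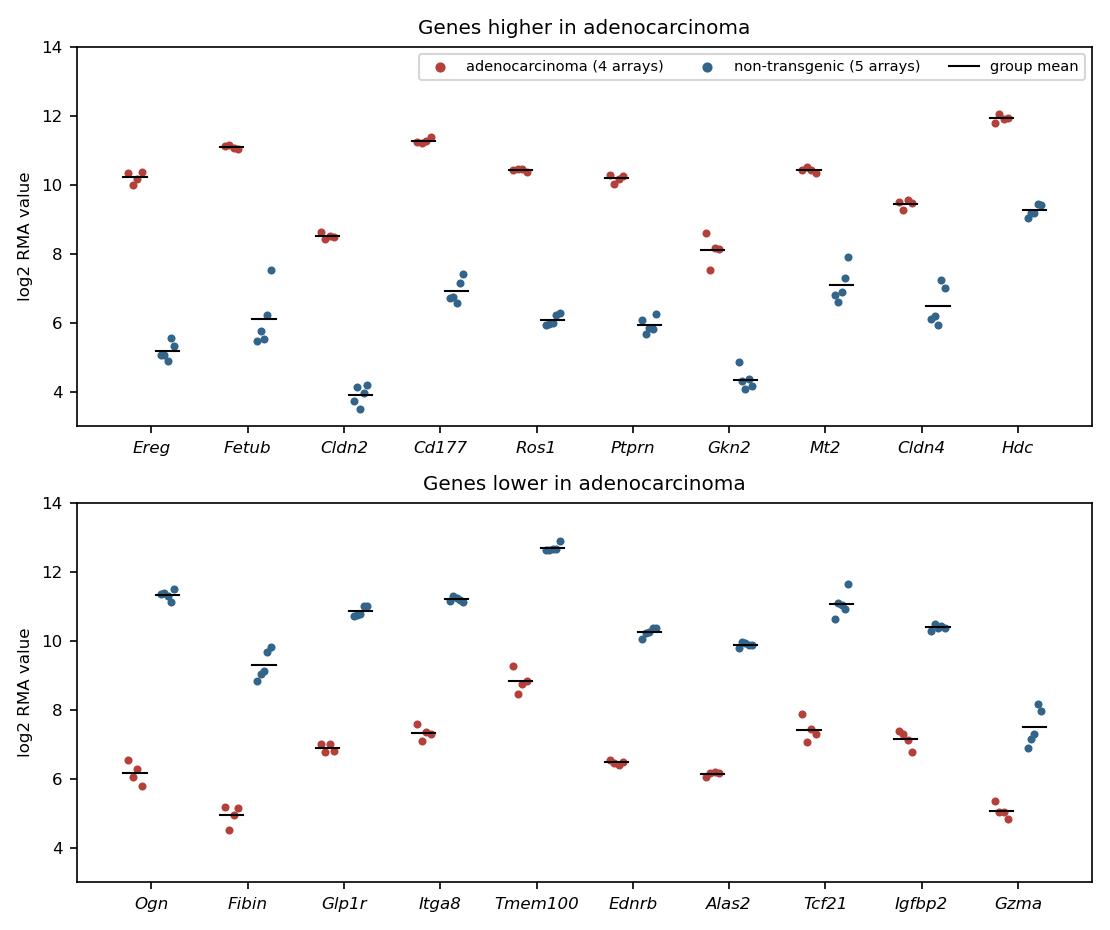
Log2 RMA value on every array for 10 genes higher (top) and 10 lower (bottom) in adenocarcinoma; points are arrays, adenocarcinomas left of non-transgenic lungs for each gene, and bars are group means. In none of the 20 genes did the groups overlap, which the naming rule required of the largest rises and falls. Over all 14939 transcript clusters the share without overlap was 36.9%.

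Liver-type secreted proteins formed a further group. Of 16 acute phase and fibrinogen genes, 10 rose, 1 fell and 5 did not pass, and the median of 1.13 was the highest of the lists described here. Fetub, for the protease inhibitor fetuin-B, had 11.12, 11.15, 11.07 and 11.03 in adenocarcinomas and 5.49, 5.76, 5.54, 6.23 and 7.53 in non-transgenic lung and rose by 4.98 ± 0.34 (adjusted p = 1.28e-08); replicate 5 was the highest of the non-transgenic lungs. Itih2, for a heavy chain of a serum protease inhibitor, rose by 4.17 ± 0.28, Orm1, for orosomucoid, by 3.36 ± 0.26 and the fibrinogen gene Fgg by 2.68 ± 0.26. Serpina3n, a protease inhibitor gene, fell by 0.72 ± 0.08. Of 14 complement genes 7 rose and 4 fell (median 0.23, or 0.04 without replicates 1 to 3), with C1qa, C1qb and C1qc, made by macrophages, at 1.28 ± 0.19, 1.24 ± 0.17 and 1.17 ± 0.19 (0.71 for C1qc without replicates 1 to 3), and C2 at -1.04 ± 0.16.

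Cell division genes rose as a group. Of 37 mitosis genes 35 rose and the other 2 did not pass, with a median of 0.76; over all transcript clusters the share called higher was 17.7% and the median 0.03. Kif23, for a kinesin of the midzone and midbody in cytokinesis, had 8.67, 8.54, 8.44 and 8.52 in adenocarcinomas and 6.51, 6.57, 6.59, 6.46 and 6.23 in non-transgenic lung and rose by 2.07 ± 0.12 (adjusted p = 1.62e-09). Its partners in the same structure, the microtubule bundler gene Prc1 and the RhoA activator gene Ect2, rose by 1.58 ± 0.17 and 1.34 ± 0.12. The proliferation marker Mki67 had 7.42, 7.03, 7.38 and 7.58 in adenocarcinomas against 6.69, 6.6, 6.4, 6.03 and 5.51 in non-transgenic lung, or 1.11 ± 0.24 (adjusted p = 0.00185), and Top2a, for topoisomerase II, rose by 1.07 ± 0.14. DNA replication genes moved less: of 33, 13 rose and 3 fell (median 0.2), led by Uhrf1, which maintains DNA methylation, at 1.18 ± 0.14 and the thymidine kinase gene Tk1 at 1.16 ± 0.19. Their count of rises was 14 without non-transgenic replicates 4 and 5 and 6 without replicates 1 to 3.

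The 250 bases before the start of each gene in RefSeq (mouse build GRCm38.p6) were searched, on both strands, for 2 motifs. These were the letters CCAAT, the core of the box bound by NF-Y, and TTTGAA, the core of the cell cycle homology region. These motifs were chosen for what is known of mitosis promoters, so their shares describe the listed genes. Their part in the rise was not tested. Of the 35 mitosis genes that rose, 30 had a window in the table used, 33 windows in all. CCAAT stood in 24 of the 33 windows (72.7%), against 33.8% of 32851 windows of all genes, and TTTGAA in 13 (39.4%) against 16.0%. The windows of the 3 largest rises are printed below, 5′ to 3′ on the gene's strand and in lower case, with these letters or their reverse complements ATTGG and TTCAAA in capitals; matches to the 2 motifs did not overlap in these windows, and a match describes the letters only. Kif23 is at chr9:61946800-61947049 on the minus strand, Prc1 at chr7:80294201-80294450 on the plus strand and Ect2 at chr3:27153879-27154128 on the minus strand.
Kif23: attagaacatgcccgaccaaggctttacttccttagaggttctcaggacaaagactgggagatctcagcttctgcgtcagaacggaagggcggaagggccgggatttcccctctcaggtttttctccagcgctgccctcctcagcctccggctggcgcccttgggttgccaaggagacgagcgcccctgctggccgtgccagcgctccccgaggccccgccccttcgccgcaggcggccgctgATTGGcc
Prc1: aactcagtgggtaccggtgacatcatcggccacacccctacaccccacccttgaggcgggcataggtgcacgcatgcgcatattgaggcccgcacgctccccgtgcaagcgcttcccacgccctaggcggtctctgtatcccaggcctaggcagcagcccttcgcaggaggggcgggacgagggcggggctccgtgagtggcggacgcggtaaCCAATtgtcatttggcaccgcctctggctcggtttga
Ect2: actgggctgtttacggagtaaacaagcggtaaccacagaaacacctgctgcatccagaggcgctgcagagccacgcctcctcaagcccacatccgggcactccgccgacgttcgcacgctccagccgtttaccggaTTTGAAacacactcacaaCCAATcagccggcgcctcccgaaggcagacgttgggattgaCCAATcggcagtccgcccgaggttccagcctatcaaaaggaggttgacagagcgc
The window of Kif23 holds 1 such match and that of Prc1 holds 1, both to CCAAT, and that of Ect2 holds 2 to CCAAT and 1 to TTTGAA.

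Genes of the G1 phase were mixed. Of 21 cyclin, CDK, inhibitor and E2F genes 9 rose and 5 fell (median 0), against 5 and 6 without replicates 1 to 3, and without adenocarcinoma replicate 3 only 5 rose. The inhibitor gene Cdkn1a, for p21, had 9.53, 9.48, 9.55 and 9.6 in adenocarcinomas and 7.95, 8.28, 8.18, 7.74 and 8.03 in non-transgenic lung and rose by 1.5 ± 0.26; the tumour suppressor gene Cdkn2a rose by 0.72 ± 0.11. The kinase gene Cdk6 had 8.2, 8.01, 8.22 and 8.13 in adenocarcinomas against 9.7, 9.71, 9.72, 9.83 and 9.8 in non-transgenic lung, a fall of 1.61 ± 0.1, and the inhibitor gene Cdkn2c fell by 1.26 ± 0.15. Of 17 p53 target genes 7 rose and 3 fell (median 0.17), with Perp, a desmosome gene, at 1.07 ± 0.23, not called at 0.44 (adjusted p = 0.0667) without replicates 1 to 3, and the death receptor gene Fas at -1.39 ± 0.18.

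Metabolic lists were mixed. Of 22 genes of fatty acid synthesis and activation 11 rose and 5 fell (median 0.26), with the fatty acid synthase gene Fasn at 1.16 ± 0.08, the acyl-CoA synthetase gene Acsl4 at 1.43 ± 0.12 and the glycerolipid gene Gpam at -1.59 ± 0.09. In cholesterol synthesis and uptake, none of 18 rose and 9 fell (median -0.23, or -0.41 without replicates 1 to 3), none 2-fold, led by the squalene epoxidase gene Sqle at -0.76 ± 0.12. Of 17 NRF2 targets 8 rose and 3 fell (median 0.45): the glutathione transferase gene Gsta4 rose by 1.99 ± 0.3 (1.21 without replicates 1 to 3), the cystine transporter gene Slc7a11 by 1.84 ± 0.19, the haem oxygenase gene Hmox1 by 1.8 ± 0.14 and the glutathione synthesis gene Gclc by 1.51 ± 0.12. The metallothionein gene Mt2, which binds zinc, was among the 25 largest rises, with 10.44, 10.51, 10.43 and 10.36 in adenocarcinomas and 6.8, 6.61, 6.89, 7.29 and 7.92 in non-transgenic lung, or 3.33 ± 0.4. Of 24 drug and retinoid metabolism genes 11 fell and 3 rose (median -0.78), against 10 and 5 (median -0.31) without replicates 4 and 5 and 15 and 3 (median -0.96) without replicates 1 to 3, the falls including the paraoxonase gene Pon1 at -3.87 ± 0.35, the monooxygenase gene Fmo1 at -3.8 ± 0.17 and the cytochrome P450 gene Cyp4b1 at -3.57 ± 0.12. Of 20 oxidative phosphorylation genes 5 rose and 1 fell (median 0.23), a count that depended on the control arrays: without non-transgenic replicates 4 and 5, 15 rose and 1 fell, and without replicates 1 to 3, 1 rose and 3 fell. With any 1 array left out, 2 to 11 rose, 11 of them without non-transgenic replicate 5. Of 23 glycolysis and hypoxia genes 9 rose and 4 fell (median 0.19), against 13 and 4 (median 0.34) without replicates 4 and 5 and 8 and 5 (median 0.04) without replicates 1 to 3. They included the isomerase gene Tpi1 at 1.42 ± 0.28 (0.74 without replicates 1 to 3), the hexokinase gene Hk2 at 1.34 ± 0.18 and the regulator gene Pfkfb3 at -1.54 ± 0.09.

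**Figure D4:**
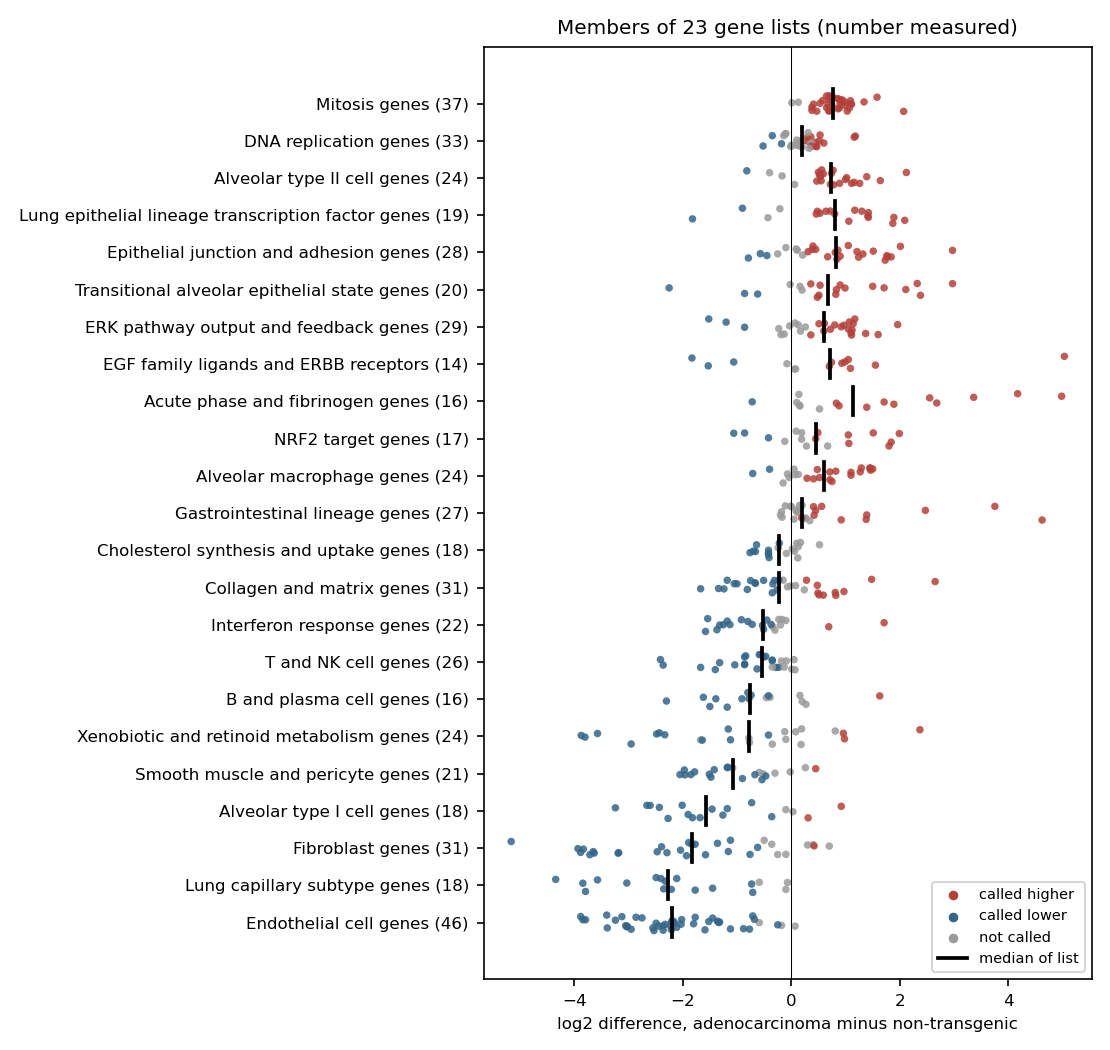
Log2 difference, adenocarcinoma minus non-transgenic, of the members of 23 gene lists, 1 point per gene coloured by its limma call, with the list's median as a black bar and the number measured in brackets. Mitosis, type II cell and junction genes lie mostly right of 0 and type I cell, fibroblast, capillary and endothelial genes mostly left of it.

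Endothelial genes had the highest share of falls of the lists described here. Of 46 measured, 43 fell and the other 3 did not pass, against 21.5% called lower over all transcript clusters, and 38 of the falls were at least 2-fold; the median was -2.2. The list's mean was 8.19 to 8.28 on adenocarcinoma arrays and 10.24 to 10.43 on non-transgenic arrays. Tmem100, a gene switched on by ALK1 signalling in endothelium, had 9.26, 8.46, 8.75 and 8.83 in adenocarcinomas and 12.65, 12.65, 12.68, 12.67 and 12.89 in non-transgenic lung, a fall of 3.88 ± 0.14 (adjusted p = 2.1e-11). Ednrb, for the endothelin receptor B, which marks alveolar capillary cells, had 6.55, 6.46, 6.4 and 6.5 in adenocarcinomas against 10.07, 10.22, 10.26, 10.38 and 10.39 in non-transgenic lung, or -3.79 ± 0.16. The adhesion genes Pecam1 and Cdh5 fell by 2.02 ± 0.11 and 2.36 ± 0.13, the VEGF receptor gene Kdr by 2.49 ± 0.18, the prostaglandin dehydrogenase gene Hpgd by 3.84 ± 0.17 and the lymphatic and capillary gene Lyve1 by 3.24 ± 0.14. The selectin genes Sele and Selp did not pass, at -0.18 ± 0.08 and 0.07 ± 0.11. Genes that part the capillary subtypes of lung fell with the rest, 15 of 18 with no rise (median -2.27). Of 29 genes of BMP, ALK1 and TGF-beta signalling 14 fell and 4 rose (median -0.22, or -0.56 without replicates 1 to 3): the endothelial receptor genes Acvrl1 and Eng fell by 2.36 ± 0.12 and 2.2 ± 0.11 and the inhibitory Smad6 by 2.02 ± 0.15, while the BMP antagonist gene Grem1 rose by 1.24 ± 0.27.

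Fibroblast genes held the largest single fall. Of 31, 23 fell, 1 rose and 7 did not pass (median -1.83). Ogn, for the matrix proteoglycan osteoglycin, had 6.54, 6.05, 6.29 and 5.79 in adenocarcinomas and 11.36, 11.38, 11.29, 11.12 and 11.52 in non-transgenic lung, a fall of 5.16 ± 0.21 (adjusted p = 9.52e-11). Itga8, an integrin gene of alveolar fibroblasts, had 7.58, 7.1, 7.35 and 7.29 in adenocarcinomas against 11.17, 11.31, 11.25, 11.18 and 11.13 in non-transgenic lung, or -3.88 ± 0.15. The lung mesenchyme factor gene Tcf21 had 7.87, 7.07, 7.45 and 7.29 in adenocarcinomas and 10.65, 11.09, 11.05, 10.93 and 11.65 in non-transgenic lung, or -3.65 ± 0.18. Cdo1, for cysteine dioxygenase, fell by 3.93 ± 0.2, the growth factor gene Vegfd by 3.83 ± 0.17, the methyltransferase gene Inmt by 3.63 ± 0.17, Wnt2, a WNT ligand gene, by 3.19 ± 0.24 and the receptor gene Pdgfra by 1.77 ± 0.11. The small proteoglycan gene Dcn did not pass, at 0.7 ± 0.26 (adjusted p = 0.0514), and was called higher, at 0.95, without non-transgenic replicates 4 and 5 and, at 0.84, without replicate 5 alone.

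Matrix genes moved in both directions. Of 31 collagen and matrix genes 10 rose and 16 fell (median -0.23), against 9 and 12 (median -0.09) without replicates 1 to 3. Col15a1, for a basement membrane collagen, had 9.81, 9.2, 9.6 and 9.65 in adenocarcinomas and 6.75, 6.73, 6.87, 7.21 and 7.04 in non-transgenic lung and rose by 2.65 ± 0.14 (adjusted p = 9.65e-10); the elastin gene Eln rose by 1.48 ± 0.14 and the fibrillar collagen gene Col1a1 by 0.59 ± 0.1. The laminin gene Lama4, of vessel walls, fell by 1.67 ± 0.12 and Col4a3, of the alveolar basement membrane, by 1.34 ± 0.11. Among 19 matrix metalloproteinase and inhibitor genes 3 rose and 7 fell, with the macrophage elastase gene Mmp12 at 1.5 ± 0.15, the inhibitor gene Timp3 at -1.18 ± 0.12 and Mmp28 at -1.91 ± 0.15. Of 21 smooth muscle and pericyte genes 14 fell and 1 rose (median -1.08), against 13 and 2 (median -0.62) without replicates 4 and 5 and 17 and 0 (median -1.33) without replicates 1 to 3, with Myh11, of contractile smooth muscle, at -1.78 ± 0.2 and the desmin gene Des at -1.97 ± 0.15; the actin gene Acta2 did not pass, at -0.52 ± 0.42, and was at 0.18 (adjusted p = 0.699) without replicates 4 and 5 but called at -1.58 (adjusted p = 0.00592) without replicates 1 to 3. The 1 rise was Rgs5, at 0.45 ± 0.1 in 1 of its 2 transcript clusters, and the other was not called; the call was lost without replicates 1 to 3 (adjusted p = 0.0593) and with age as a covariate (adjusted p = 0.0839). Of 11 mesothelial genes 7 fell and 1 rose (median -0.98). Without replicates 4 and 5 it was 7 and 2 (median -0.77), and without replicates 1 to 3 it was 8 and 0 (median -1.31). Of 17 heart muscle genes 1 fell and none rose (median 0.06).

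Other large falls belonged to no stromal list. Glp1r, for the receptor of the incretin GLP-1, had 7.01, 6.77, 7.01 and 6.82 in adenocarcinomas and 10.73, 10.76, 10.79, 11.0 and 11.0 in non-transgenic lung, a fall of 3.95 ± 0.25 (adjusted p = 5.96e-09). Alas2, for the erythroid enzyme that starts haem synthesis, had 6.06, 6.17, 6.19 and 6.18 in adenocarcinomas against 9.81, 9.98, 9.93, 9.89 and 9.87 in non-transgenic lung, with a spread of at most 0.07 (SD) in either group, and fell by 3.75 ± 0.09 (adjusted p = 9e-13). The other red blood cell genes moved less: the anion exchanger gene Slc4a1 fell by 0.78 ± 0.08, Bpgm by 0.78 ± 0.1, and Epb42 did not pass, at -0.11 ± 0.09.

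Leukocyte genes differed by list. The pan-leukocyte gene Ptprc fell by 0.75 ± 0.1. Of 26 T and NK cell genes 19 fell and none rose (median -0.54): Gzma, for granzyme A, had 5.37, 5.05, 5.05 and 4.85 in adenocarcinomas and 6.9, 7.15, 7.31, 8.16 and 7.96 in non-transgenic lung, or -2.41 ± 0.21, and the NK receptor genes Ncr1 and Klrd1 fell by 2.36 ± 0.18 and 1.4 ± 0.11. The T cell receptor subunit gene Cd3e was at -0.28 ± 0.1 (adjusted p = 0.0496), a call lost under 16 of the 25 alternatives, among them that without replicates 4 and 5, at -0.14. Of 16 B and plasma cell genes 10 fell and 1 rose (median -0.76), or 10 and 3 without replicates 4 and 5, with Ms4a1, for CD20, at 5.08, 5.02, 5.14 and 5.1 in adenocarcinomas against 7.46, 7.55, 7.65, 7.1 and 7.17 in non-transgenic lung, or -2.3 ± 0.28; the rise was that of Sdc1, a syndecan gene that epithelium also expresses, at 1.63 ± 0.1. Of 24 alveolar macrophage genes 16 rose and 2 fell (median 0.61), a count of rises that was 8 with age as a covariate, while without replicates 1 to 3 there were 11 rises and 4 falls (median 0.36). The protease gene Ctsk rose by 1.46 ± 0.13, the glycoprotein gene Gpnmb by 1.45 ± 0.09 and the chitinase-like gene Chil3 by 1.45 ± 0.36, the last not called without non-transgenic replicates 1 to 3, while Marco, a scavenger receptor gene, did not pass at -0.15 ± 0.07 and was called lower, at -0.20, without non-transgenic replicate 1 and, at -0.24, without replicates 1 to 3. Of 24 monocyte and interstitial macrophage genes 10 rose and 9 fell (median 0.22); without replicates 1 to 3 it was 8 and 10 and the median turned to -0.14. The lysosomal gene Cd68 led the rises, with 10.23, 10.1, 10.13 and 10.13 in adenocarcinomas and 8.6, 8.7, 8.65, 8.95 and 8.88 in non-transgenic lung, or 1.39 ± 0.09, and those that fell included Treml4 at -1.94 ± 0.15 and Plac8 at -1.61 ± 0.16, of circulating monocytes. Csf1r, another macrophage marker gene, was called lower in the main fit and in every alternative. Its difference ran from -0.69 to -0.43, with a limma adjusted p of at most 0.0181.

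Most interferon response genes fell, and chemokine genes were mixed. Of 22 interferon genes 14 fell and 2 rose (median -0.52): Gbp3 fell by 1.58 ± 0.14, Ifit1 by 1.54 ± 0.23 and Ifit2 by 1.37 ± 0.09, all targets of interferon. Cxcl9, an interferon-gamma induced chemokine gene for T cells, rose by 1.71 ± 0.16, with 6.53, 7.05, 6.79 and 6.93 in adenocarcinomas and 5.07, 4.95, 4.98, 5.61 and 4.97 in non-transgenic lung. Among 37 chemokine and receptor genes 8 rose and 13 fell (median 0.03), with Cxcl17, of mucosal epithelium, at 2.33 ± 0.28 and Ackr2, a chemokine scavenger gene, at -2.4 ± 0.16; without non-transgenic replicates 1 to 3, 4 rose and 12 fell and the median turned to -0.19. Hdc, for the enzyme that makes histamine, had 11.79, 12.07, 11.92 and 11.93 in adenocarcinomas and 9.05, 9.18, 9.2, 9.46 and 9.41 in non-transgenic lung and rose by 2.67 ± 0.13 (adjusted p = 3.08e-10). Of the basophil and mast cell genes measured beside it, Mcpt8 rose by 0.61 ± 0.19, a call lost without non-transgenic replicate 3 or adenocarcinoma replicate 2 or 3, and Ms4a2, Fcer1a and Cpa3 did not pass, at 0.01 ± 0.09, -0.02 ± 0.24 and -0.2 ± 0.08. Of 20 genes of MHC class II and dendritic cells 6 rose and 6 fell (median 0.15), against 9 and 6 (median 0.26) without replicates 4 and 5 and 3 and 6 (median -0.02) without replicates 1 to 3. Of 10 of MHC class I and antigen processing 1 rose and 4 fell (median -0.28), against 3 and 4 (median -0.12) and 0 and 6 (median -0.52) without those arrays.

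In WNT signalling 6 of 27 genes rose and 11 fell (median -0.07), or 4 and 12 (median -0.32) without replicates 1 to 3, with the modulator gene Dkk2 at 1.79 ± 0.11 beside the fall of Wnt2 given above. Of 14 clock genes 2 rose and 4 fell (median -0.36), or 3 and 6 (median -0.59) without replicates 1 to 3: the repressor genes Nfil3 and Bhlhe40 rose by 1.43 ± 0.21 and 1.23 ± 0.15 and the output gene Hlf fell by 1.85 ± 0.18. The hour at which the tissue was taken is not given in the sources used here.

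Dysplasia and unaltered transgenic lung showed at which stage some of these differences were present. Adenocarcinoma and dysplasia were compared directly, in the same fit (15.9% of the 14939 transcript clusters were called), and all differences from non-transgenic lung share the same 5 control arrays. Ereg differed from non-transgenic lung by 2.07 ± 0.35 in unaltered tissue, 4.68 ± 0.35 in dysplasia and 5.03 ± 0.35 in adenocarcinoma, and the last did not differ from dysplasia by the test, at 0.35 ± 0.37 (adjusted p = 0.624). Kif23 was at 0.53 ± 0.12, 1.79 ± 0.12 and 2.07 ± 0.12, with 0.28 ± 0.12 between adenocarcinoma and dysplasia (adjusted p = 0.172), and for Mki67 that last difference was -0.07 ± 0.25 (adjusted p = 0.899). A p that misses the threshold does not show that tumour and dysplasia were alike in these genes. The fibrinogen gene Fgg was at 2.83 ± 0.26, 2.68 ± 0.26 and 2.68 ± 0.26, with no difference called between tumour and dysplasia, so it was already high in unaltered transgenic lung.

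Other genes differed from dysplasia as well. Ros1 was at 0.59 ± 0.11, 2.93 ± 0.11 and 4.34 ± 0.11 in unaltered tissue, dysplasia and adenocarcinoma, and was higher in adenocarcinoma than in dysplasia by 1.41 ± 0.11 (adjusted p = 1e-06). Col15a1 was higher than in dysplasia by 2.13 ± 0.15 (adjusted p = 2.62e-07) and Sprr1a by 2.15 ± 0.21 (adjusted p = 6.35e-06), and both differed little in dysplasia itself, at 0.51 ± 0.14 and 0.23 ± 0.2. For 3 of the largest falls, most of the difference lay between dysplasia and tumour: Ogn was at -0.38 ± 0.21, -1.42 ± 0.21 and -5.16 ± 0.21, with -3.75 ± 0.22 between adenocarcinoma and dysplasia (adjusted p = 7.92e-08). Ednrb was at -0.27 ± 0.16, -1.19 ± 0.16 and -3.79 ± 0.16, with -2.6 ± 0.17 (adjusted p = 1.34e-07), and Alas2 at -0.51 ± 0.09, -1.44 ± 0.09 and -3.75 ± 0.09, with -2.3 ± 0.1 (adjusted p = 4.2e-09). Genes of the interferon response and of lymphocytes included some whose difference was as large in dysplasia, such as the chemokine gene Ccl5 at -1.72 ± 0.24, -1.82 ± 0.24 and -1.67 ± 0.24, with 0.15 ± 0.26 between adenocarcinoma and dysplasia (adjusted p = 0.78). The animals of those 2 tissues were 5 to 6 months old, so stage and age cannot be told apart here either.

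**Figure D5:**
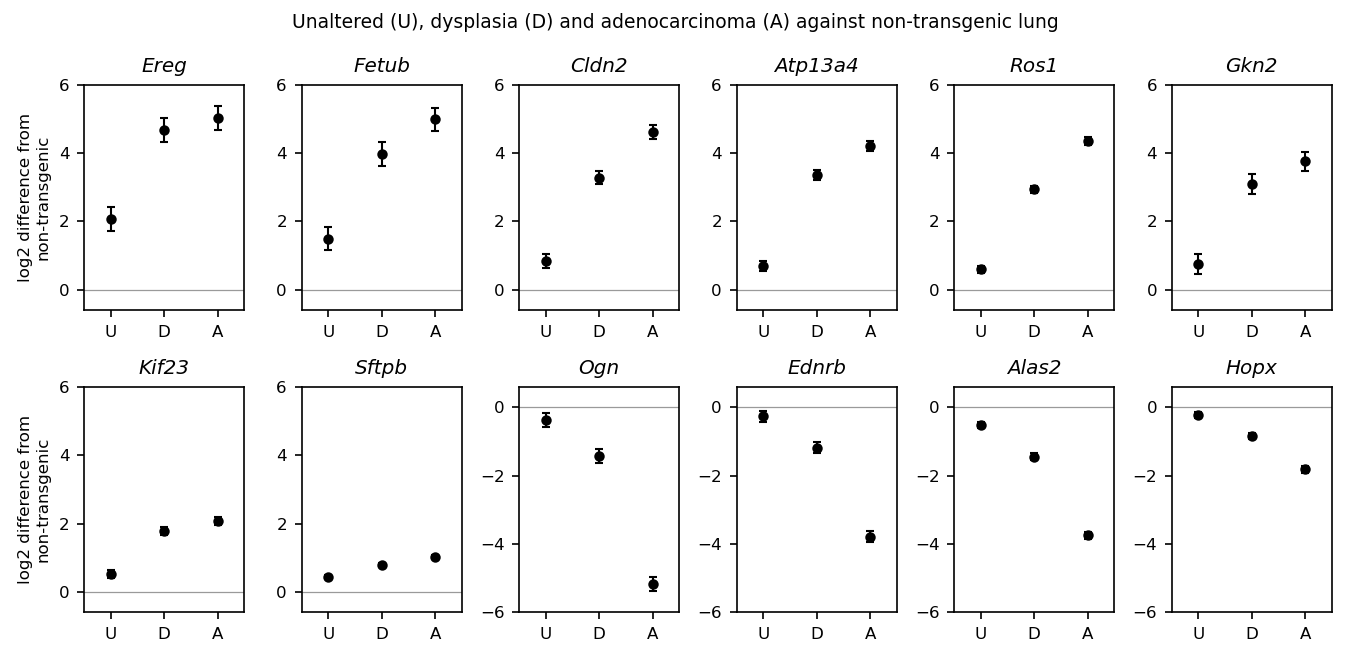
Log2 difference from the 5 non-transgenic arrays in unaltered transgenic lung (U), dysplasia (D) and adenocarcinoma (A), 4 arrays each, for 12 genes; points are fitted differences and bars their SE. Ereg and Kif23 were nearly as high in dysplasia as in adenocarcinoma, and Ogn, Ednrb and Alas2 were much lower in adenocarcinoma than in dysplasia.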

How the data were processed

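RNA of laser-cut cells was reduced for ribosomal RNA, amplified, labelled with biotin and hybridised to Affymetrix mouse exon arrays, 1 array per sample. Per the labels, the authors summarised core exons by RMA in Expression Console, and the deposited values are log2 expression levels, 1 per transcript cluster and array. GCOS is named, with no role, per the submitters' processing notes. The values run between 1.13 and 14.3 with none missing, and were used as deposited, with no further scaling or filter. Arrays have no read depth, and their number limits the precision.

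All 23238 transcript clusters on all 17 arrays were fitted with limma 3.58.1 in R 4.3.3, with 4 group means; arrays of 1 animal shared a random effect (correlation by duplicateCorrelation, 0.2446), because dysplasia and unaltered tissue came from the same mice. Differences are adenocarcinoma minus non-transgenic group means with standard errors; p-values were adjusted over all 23238 by Benjamini-Hochberg, and an adjusted p under 0.05 was a call. The fit was tested on simulated data with known changes and independent noise on each array. Those data held no animal effect and no split among the non-transgenic arrays, so the test does not cover these. Figures were drawn with matplotlib 3.10.9.

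GEO's platform annotation gave 14939 transcript clusters 1 symbol, 989 several and 7310 none; only those with 1 were named. The rule for named genes took markers and model genes, the 25 largest rises and falls without overlap (leaving out unnamed gene models), up to 4 called members per list by size and the largest in each direction. Uncalled list members are given as values, and Slc4a1, Bpgm, Mcpt8 and the uncalled members given with them were named after their values were seen. The members and the 48 lists were chosen with earlier results of these data known. The alternatives tried were other samples, covariates, scalings, filters and 1 array left out at a time.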

Additional observations from a re-analysis of the deposited data

Results flagged for a closer look

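In 178 groups of values, of the genes given array by array and of the list means, 14 held 1 array that stood apart from the others of its group by Dixon's test, which chance does in about 1 in 20 groups. In adenocarcinoma replicate 2, Scgb1a1 was at 9.69, against 12.59 to 13.05 in the other 3 tumours. In the same replicate the mean of the junction genes was 9.28, that of the acute phase genes 8.45, that of the capillary genes 8.71, that of the fibroblast genes 7.88 and that of the clock genes 8.08, each below the other 3 tumours, for clock genes at 8.30 to 8.32. The mean of the BMP, ALK1 and TGF-beta genes was 8.28 in adenocarcinoma replicate 1, above 8.21 to 8.22 in the others, and that of the red blood cell genes 6.62 in replicate 3, above 6.48 to 6.50.

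In non-transgenic replicate 5, Aqp5 was at 9.95, against 9.59 to 9.67 in the other 4 lungs, Tmem100 at 12.89, against 12.65 to 12.68, and Jun at 10.65, against 10.50 to 10.54. The means of the p53 target genes and of the clock genes were 8.50 and 8.81 in that array, against 8.19 to 8.27 and 8.31 to 8.45 in the others. Cxcl9 was at 5.61 in non-transgenic replicate 4, against 4.95 to 5.07.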

How the results depend on the processing

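Of the 250 genes of the naming rule 238 were called, and 208 of these kept the call under each of the 25 alternatives that tested them; 30 lost it under at least 1, or 18 without counting the age covariate and the arrays labelled male. The 5851 calls became 3762 with age as a covariate and stayed within 1.5 times under the others, with 5126 to 6032 when 1 array was left out. The 2638 higher calls became 1302 with age as a covariate, 1699 with arrays labelled male only and 4177 with array weights; the 3213 lower calls stayed within 1.5 times. Age does not overlap between the groups, and the cause of these shifts was not tested. Without non-transgenic replicates 4 and 5 there were 6713 calls (3407 higher, 3306 lower), and without replicates 1 to 3 there were 5124 (1882 and 3242). With only the arrays of the 2 groups compared in the fit, there were 5291 (2350 and 2941). With quantile scaling 54.6% of calls were higher, against 45.1% as reported. Direction turned for Sftpc with cyclic loess, at -0.17 (adjusted p = 0.0135), and for Sdhd, an oxidative phosphorylation gene, without non-transgenic replicates 1 to 3, at -0.01 (adjusted p = 0.932); the cause was not tested. Among genes that were not called, Sftpc was also below 0 with quantile scaling, at -0.03 (adjusted p = 0.717), and Acta2 above 0 without non-transgenic replicates 4 and 5, at 0.18. With age as a covariate, rises numbered 8 of 24 among alveolar macrophage genes, 4 of 33 in DNA replication, 3 of 23 in glycolysis, 0 of 20 in oxidative phosphorylation, 3 of 17 among p53 targets, 6 of 27 among gastrointestinal genes, 5 of 14 in the EGF family, 4 of 21 in G1, 3 of 27 in WNT signalling, 4 of 37 among chemokine genes, 3 of 20 among MHC class II and 2 of 11 among basal cell genes, and falls 1 of 17 among neuroendocrine, 2 of 13 among club cell, 12 of 26 among T and NK cell and 5 of 16 among B cell genes. Age also ended the calls of Map2k2, Tk1, Tpi1, Perp and Chil3, and arrays labelled male those of Cpe, Grem1 and Perp. Levels at either end of the scale, such as that of Sftpc, limit the size a difference can show. Calls of Cckar, Pdia3, Ndufa1 and Sdhd, besides those given above, were lost when single arrays were left out. No paired analysis was possible because the groups share no animal and the replicate numbers only follow the order of the samples.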
